A study of Mus musculus with 10 samples.

Results

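Potassium channel subunits and the proteins named after them were examined in cultured mouse cortical neurons by taking every probe set with 1 gene symbol whose symbol starts with Kcn. Genes with several such probe sets are represented by the brightest one, judged by its mean on the 10 arrays. This gave 90 genes of the 22180 genes measured, in 21 subfamilies by the letters after Kcn. The neurons came from the cortex of embryos at embryonic day 14.5 to 15.5, were grown in Neurobasal medium with B27, and received sodium arsenite or vehicle on day 7 in culture for 12 hours. Arsenite is a form of arsenic that binds the thiol groups of proteins and stresses cells oxidatively. ATF4 is the transcription factor whose translation rises when stressed cells slow protein synthesis, a programme called the integrated stress response. There were 2 arrays of ATF4-deficient neurons given 5 µM arsenite, 2 of ATF4-deficient neurons given vehicle, 4 of wildtype neurons given 5 µM arsenite and 2 of wildtype neurons given vehicle. The labels say neither how ATF4 was removed nor in which cells, and the sample titles call the samples biological replicates without saying whether they were separate embryos, litters or cultures. The p-values therefore measure only the spread between these samples, which may be technical.

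Potassium channels let potassium leave the cell, which sets the resting potential, ends the action potential and spaces repeated firing. Voltage-gated channels are tetramers of alpha subunits (Kcna to Kcnd, Kcnh, Kcnq) to which silent alpha subunits (Kcnf, Kcng, Kcns, Kcnv) and auxiliary proteins (Kcnab, Kcne, Kcnip) are added. Other families respond to calcium or sodium inside the cell (Kcnma, Kcnn, Kcnt), conduct best near the resting potential (the inward rectifiers, Kcnj) or leak at all voltages (the two-pore channels, Kcnk). In cortical neurons the M current of the Kcnq channels, the A current of the Kcnd and Kcna4 channels and the afterhyperpolarisation current of the Kcnn channels limit excitability.

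RefSeq promoter windows of 300 bases, 250 before and 50 after an annotated transcript start on GRCm38.p6, were matched for 70 of the 90 genes, which together had 95 windows. They were searched on both strands for letters that ATF4 and related factors are known to bind. The windows of 4 genes whose changes are described below are shown: Kcnip2 (chr19:45816014-45816313, minus strand), Kcnj3 (chr2:55435720-55436019, plus strand), Kcnq1ot1 (chr7:143296498-143296797, minus strand) and Kcnt2 (chr1:140245468-140245767, plus strand). Each runs 5′ to 3′ along its gene, in lower case, with the letters TGACG or their reverse complement in capitals.
Kcnip2: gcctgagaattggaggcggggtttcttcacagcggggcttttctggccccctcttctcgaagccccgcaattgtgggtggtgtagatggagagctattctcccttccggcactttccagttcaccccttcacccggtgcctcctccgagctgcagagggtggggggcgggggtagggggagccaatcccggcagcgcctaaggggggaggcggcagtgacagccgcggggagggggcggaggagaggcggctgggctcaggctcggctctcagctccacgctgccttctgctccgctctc
Kcnj3: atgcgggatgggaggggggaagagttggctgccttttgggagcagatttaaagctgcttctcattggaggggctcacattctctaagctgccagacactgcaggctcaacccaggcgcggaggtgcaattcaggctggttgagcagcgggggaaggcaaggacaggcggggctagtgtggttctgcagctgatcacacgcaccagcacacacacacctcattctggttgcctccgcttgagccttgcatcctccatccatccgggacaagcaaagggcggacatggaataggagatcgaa
Kcnq1ot1: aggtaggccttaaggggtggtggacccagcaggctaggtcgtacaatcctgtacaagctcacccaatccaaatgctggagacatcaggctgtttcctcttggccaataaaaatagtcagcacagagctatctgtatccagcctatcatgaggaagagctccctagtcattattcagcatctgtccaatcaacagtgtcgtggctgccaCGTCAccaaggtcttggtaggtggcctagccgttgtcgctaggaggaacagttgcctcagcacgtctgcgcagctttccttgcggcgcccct
Kcnt2: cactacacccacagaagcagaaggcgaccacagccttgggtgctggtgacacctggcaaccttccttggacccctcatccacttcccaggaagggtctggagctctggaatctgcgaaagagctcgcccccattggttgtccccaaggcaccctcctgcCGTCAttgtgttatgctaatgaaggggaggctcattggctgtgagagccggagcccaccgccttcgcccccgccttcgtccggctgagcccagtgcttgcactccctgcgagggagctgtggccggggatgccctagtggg
The Kcnq1ot1 and Kcnt2 windows held 1 match each, on the minus strand of the printed letters, and the Kcnip2 and Kcnj3 windows held 0. TGACG, which is contained in the full cyclic AMP response element TGACGTCA, occurred in 18 of the 95 windows of potassium channel genes (18.9%) and in 20.8% of all 32851 windows. The full element occurred in 0 of the 95 windows and in 1.79% of all windows. TGATGCAA, a composite element of ATF4 and C/EBP factors, occurred in 0 of the 95 windows and in 0.895% of all windows. TGACNNNGC, the core of the antioxidant response element, which can overlap TGACG, occurred in 16 of the 95 windows (16.8%) and in 12.4% of all windows. These matches describe letters only, and binding was not measured.

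Values are log2 RMA (robust multiarray average) values as the authors deposited them, and 1 unit is a doubling of signal. Detection calls are not part of the table. The level of genes unlikely to be used in cortex was taken from 1394 olfactory and vomeronasal receptor genes, whose 90th percentile, 6.63, served as the dim reference. Of the 90 genes, 63 had all 4 group means above it, 9 had some above and some below, and 18 had all 4 below. The 18 near background were Kcna5, Kcnab3, Kcnd3os, Kcne4, Kcng4, Kcnh6, Kcnj1, Kcnj8, Kcnk5, Kcnk7, Kcnk16, Kcnk18, Kcnmb3, Kcnq1, Kcnrg, Kcns1, Kcnu1 and Kcnv2. Several of these are known from other organs, such as Kcnu1, the sperm channel, whose mean over all arrays was 4.77. By limma 0 of the 18 passed the test in any of the 7 comparisons below, at most 1 per comparison had an unadjusted p under 0.05, and their log2 differences stayed between -0.29 and 0.23. The 9 with group means on both sides of the reference were Kcna10, Kcne1, Kcnf1, Kcnh4, Kcnip2, Kcnj2, Kcnj5, Kcnj16 and Kcnk12. Signals of different probe sets do not rank genes, because each probe set has its own response.

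**Figure D1:**
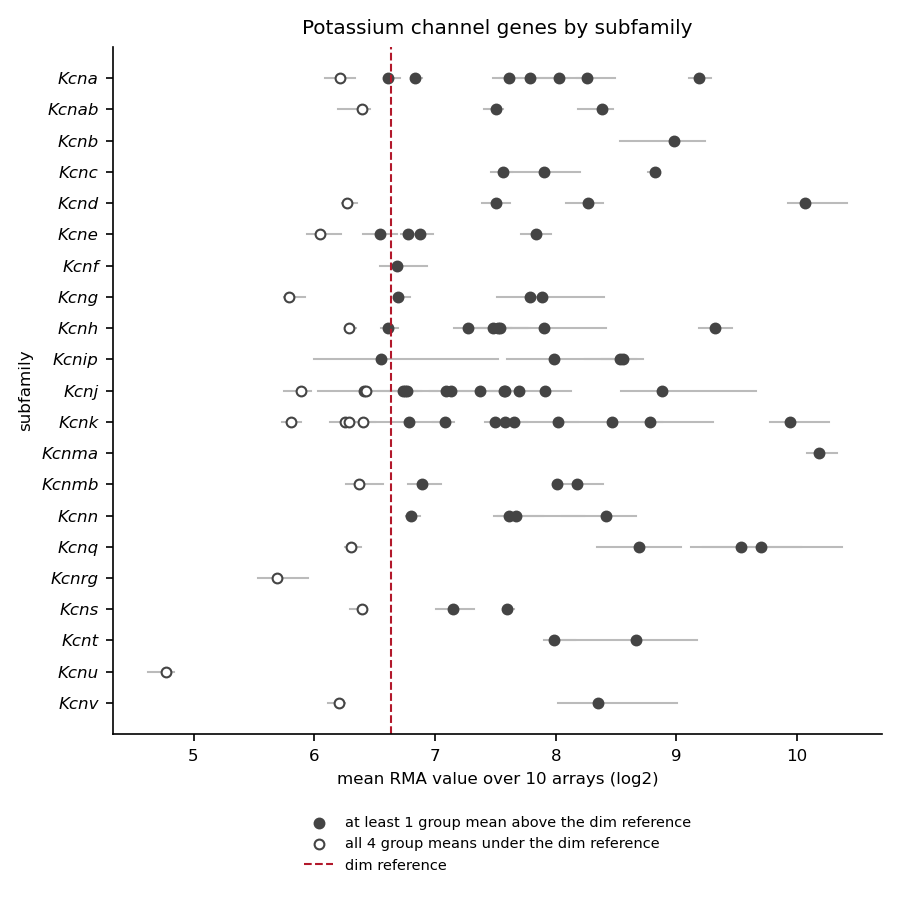
Mean RMA value over the 10 arrays (horizontal axis, log2) of each of the 90 genes, by subfamily (vertical axis). Grey lines run from the lowest to the highest of the 4 group means, open circles are the 18 genes whose 4 group means lie under the dim reference of 6.63 (dashed line), and long lines mark genes with unlike groups, such as Kcnip2 in the Kcnip row.

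Array medians lay between 6.75 and 6.81. Atf4 had 7.54 and 7.70 in ATF4-deficient arsenite, 7.65 and 7.48 in ATF4-deficient vehicle, 9.43, 9.80, 9.64 and 9.91 in wildtype arsenite, and 9.09 and 9.56 in wildtype vehicle arrays, so the genotype labels and the targeted gene match. On the first principal component of all genes, ATF4-deficient arsenite replicate 2 stood apart at 29.4, against -18.2 to 8.70 for the other 9 arrays. The mean of 8 neuron markers lay between 10.5 and 10.7 on every array, although over both treatments Nefl, a neurofilament, was called higher in ATF4-deficient neurons (log2 difference 0.49, adjusted p = 0.0347) and Tubb3, a neuronal tubulin, lower (log2 difference -0.44, adjusted p = 0.0123). The mean of 13 astrocyte markers differed with genotype, at 7.41 and 7.06 in ATF4-deficient arsenite, 7.52 and 7.16 in ATF4-deficient vehicle, 7.52 to 8.05 in wildtype arsenite, and 8.08 and 8.32 in wildtype vehicle arrays. Of these 13 markers 7 were called lower in ATF4-deficient neurons over both treatments, where 1.24% of all genes were called lower. S100b and Gjb6 were near background throughout. Among 8 oligodendrocyte lineage markers, 3 were called lower in ATF4-deficient neurons over both treatments, where 1.24% of all genes were called lower. Their estimates there ran from -0.97 to 0.08, 5 negative and 3 positive, with those of Olig1, Olig2 and Pdgfra the most negative. Over both treatments 1 of 9 inhibitory neuron markers and 2 of 7 progenitor and cycling markers were called lower. There 1 of 6 excitatory neuron markers was called higher, and 0 of 8 microglia markers were called. The mean of 7 vascular and mural markers was 7.03 and 6.96 in ATF4-deficient arsenite, 7.18 and 7.14 in ATF4-deficient vehicle, 6.81 to 6.95 in wildtype arsenite, and 6.99 and 6.81 in wildtype vehicle arrays. Of these 7 only Rgs5, a mural cell gene, was called. Rgs5 had 6.5999 and 6.502 in ATF4-deficient arsenite, 7.32 and 7.85 in ATF4-deficient vehicle, 6.44, 6.05, 5.94 and 6.41 in wildtype arsenite, and 6.502 and 6.08 in wildtype vehicle arrays, so only the ATF4-deficient vehicle arrays lay above the dim reference described above. It was higher in ATF4-deficient neurons under vehicle (log2 difference 1.29, adjusted p = 0.0344) and over both treatments (0.82, adjusted p = 0.0179), and fell by 1.03 with arsenite in ATF4-deficient neurons (adjusted p = 0.045). The cultures thus hold RNA of several cell types, and in such bulk RNA fewer cells of a type and less RNA per cell cannot be told apart. Whether cell makeup has a part in the results below was not tested.

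Each comparison was a contrast of a single limma model over all 10 arrays, with p-values adjusted by the Benjamini-Hochberg method over the 22180 genes, and genes past an adjusted p of 0.05 were called. The question of the first pair of comparisons was how the genes respond to arsenite in each genotype. In ATF4-deficient neurons 7 of the 90 genes were called, 2 higher and 5 lower with arsenite, where 1.15% of all genes were called, 0.631% higher and 0.523% lower. Kcnj3, Kcnk9, Kcnj2, Kcnq5 and Kcna4 fell, and Kcnb2 and Kcnq1ot1 rose. In wildtype neurons 4 of the 90 genes were called, all lower with arsenite (Kcnip2, Kcnv1, Kcng1 and Kcnn2), where 0.482% of all genes were called, 0.23% higher and 0.252% lower. No gene was called in both, but the difference between the genotypes' responses was called for 0 of the 90 genes and for 0 genes of the whole table by the interaction term in limma, so 0% of genes were called there. At an unadjusted p under 0.05 the interaction held 15 of the 90 genes and 1330 genes of the table, which is 6% of them. With only the arrays of the compared groups in the fit, 0 of the 90 genes were called in ATF4-deficient neurons, where 0 genes of the whole table were called, and 1, Kcnv1, in wildtype neurons, where 11 genes of the table were called. Without ATF4-deficient arsenite replicate 2, the array that stood apart, 2 of the 90 genes and 50 genes of the table were called in ATF4-deficient neurons. In wildtype neurons all 13 astrocyte markers had negative estimates with arsenite (median -0.42, against -0.02 for all genes, 0 called by limma). Of the 8 oligodendrocyte lineage markers 6 had negative and 2 positive estimates there (-0.82 to 0.04). Of these 8, 1 was called lower, where 0.252% of all genes were. The part of either cell type in the 4 calls was not tested. In ATF4-deficient neurons Rgs5 fell with arsenite beside the 5 genes called lower, all of which had their highest group mean in ATF4-deficient vehicle. Of the 7 vascular and mural markers 5 had negative and 2 positive estimates there (median -0.10, against -0.01 for all genes). The highest was 0.32, for Acta2. Under vehicle the estimates of 5 of the 7 were higher and of 2 lower in ATF4-deficient than in wildtype neurons. The part of mural cells in those 5 calls was not tested.

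Without a call, more genes lay apart on every array. In ATF4-deficient neurons the arsenite arrays lay wholly above the vehicle arrays for 15 of the 90 genes, against 18.1% of all genes, and wholly below for 28, against 20.7%. In wildtype neurons they lay wholly above for 4, against 7.86% of all genes, and wholly below for 22, against 12.7%. The median log2 difference of the 90 genes was -0.05 in ATF4-deficient neurons, against -0.01 for all genes, and -0.07 in wildtype neurons, against -0.02 for all genes. Over the mean of both genotypes, which uses all 10 arrays, 10 of the 90 genes were called, 1 higher and 9 lower, where 3.07% of all genes were called, 1.65% higher and 1.42% lower. Restricted to the 14162 genes above the dim reference in some group, 72 of the 90 among them, the shares called were 1.74% for arsenite in ATF4-deficient neurons, 0.706% in wildtype neurons, 4.49% over both genotypes and 0% for the interaction. A gene can pass this filter only through the group where it is high, as Kcnip2 does through wildtype vehicle. The filter is therefore not independent of the comparisons, and these shares are a description.

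**Figure D2:**
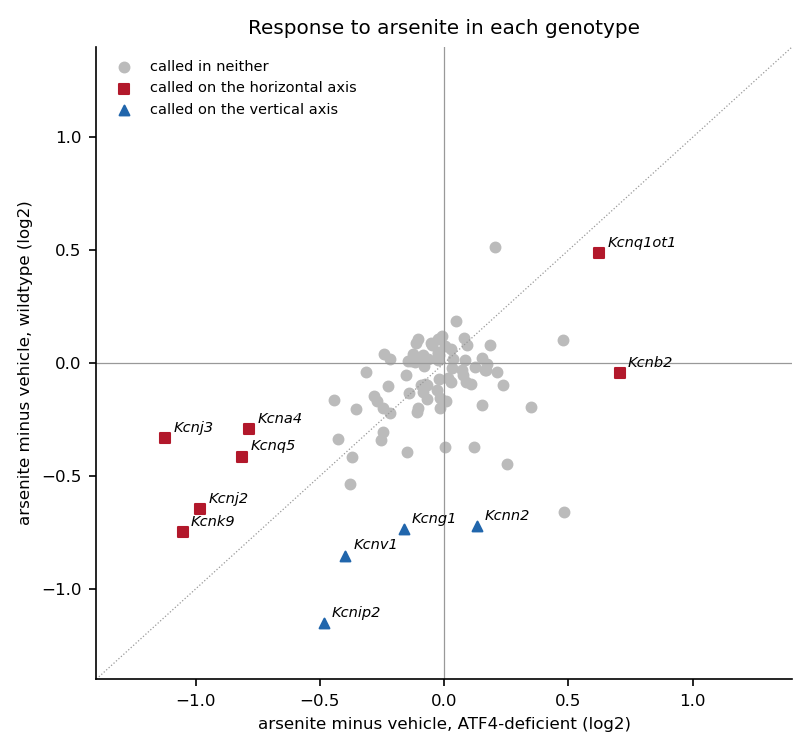
Arsenite minus vehicle (log2) in ATF4-deficient neurons (horizontal axis) and in wildtype neurons (vertical axis) for the 90 genes, with a dotted line of equal response. Squares are called in ATF4-deficient neurons, triangles in wildtype neurons and grey circles in neither. Kcnq1ot1 sits at 0.62 and 0.49, and Kcnip2 at -0.49 and -1.15.

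The 2 genotype comparisons asked which genes differ without ATF4. Under vehicle 6 of the 90 genes were called, 1 higher and 5 lower in ATF4-deficient neurons, where 0.433% of all genes were called, 0.18% higher and 0.252% lower. Kcnq3, Kcnip2, Kcnh3, Kcnn2 and Kcnv1 were lower and Kcnj3 was higher. Under arsenite only Kcnt2 was called among the 90, lower in ATF4-deficient neurons, where 0.343% of all genes were called, 0.0721% higher and 0.271% lower. With only the arrays of the compared groups in the fit, 0 of the 90 were called in either, where 0 genes of the table were called under vehicle and 41 under arsenite. ATF4-deficient arrays lay wholly above wildtype arrays for 22 of the 90 genes under vehicle, against 21.2% of all genes, and wholly below for 34, against 21.4%. Under arsenite they lay wholly above for 9, against 10.6% of all genes, and wholly below for 10, against 7.95%. Over the mean of both treatments 7 of the 90 genes were called, all lower in ATF4-deficient neurons, where 1.82% of all genes were called, 0.582% higher and 1.24% lower. Among the 14162 brighter genes, with the same limit of the filter, the shares called were 0.657% for genotype under vehicle, 0.508% under arsenite and 2.68% over both treatments. The wildtype vehicle arrays are shared by the wildtype arsenite comparison and the genotype comparison under vehicle, and the other groups are shared in the same way. A gene called in comparisons that share arrays is therefore not counted as repeated evidence. The astrocyte markers had a median genotype difference of -0.80 over both treatments, against 0.01 for all genes, and their part in these calls was not tested.

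**Figure D3:**
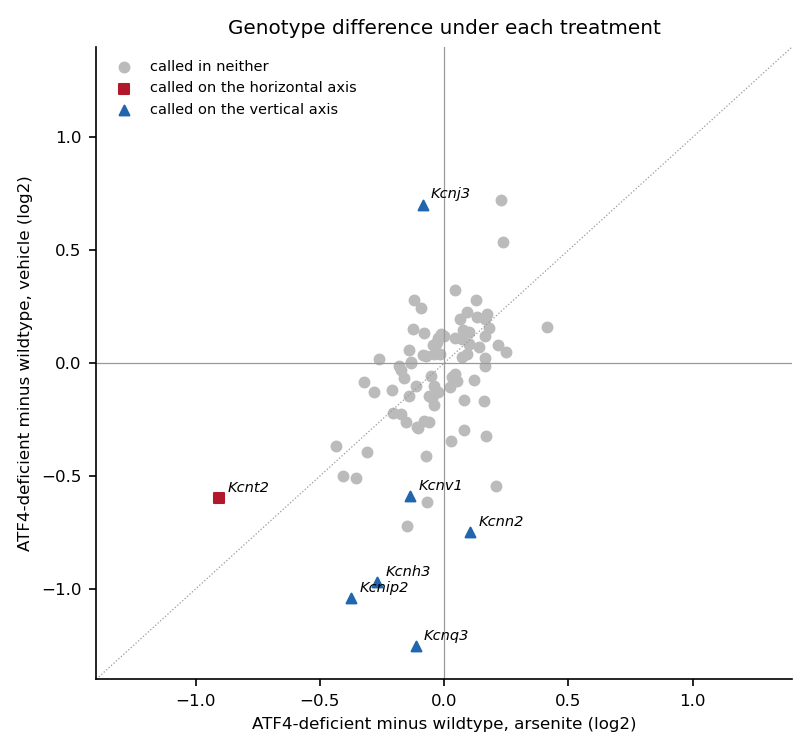
ATF4-deficient minus wildtype (log2) under arsenite (horizontal axis) and under vehicle (vertical axis) for the 90 genes, with a dotted line of equal difference. The square is Kcnt2, called under arsenite, and triangles are the 6 genes called under vehicle, of which Kcnj3 is the only one above 0.

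In a principal component analysis of the 90 genes the first component held 40.4% of the variance and the second 31.2%. On the first, arsenite arrays lay between 0.08 and 1.74 and vehicle arrays between -1.73 and -1.14, in both genotypes. On the second, ATF4-deficient arrays lay between 0.37 and 2.19 and wildtype arrays between -1.23 and -0.18. The genes with the most weight on the first component were Kcnk9, Kcnip2, Kcnj2, Kcnj3 and Kcnv1. Among the 74 genes called in no comparison the first component held 35.5% and did not separate the treatments, as ATF4-deficient vehicle arrays lay at 0.01 and 0.59, among arsenite arrays at -0.71 to 1.39. The second held 21.1% and did separate them, with arsenite arrays at 0.12 to 0.83 and vehicle arrays at -1.28 to -0.09. The 74 genes were chosen by their calls in these same comparisons, so their components are a description with no test.

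**Figure D4:**
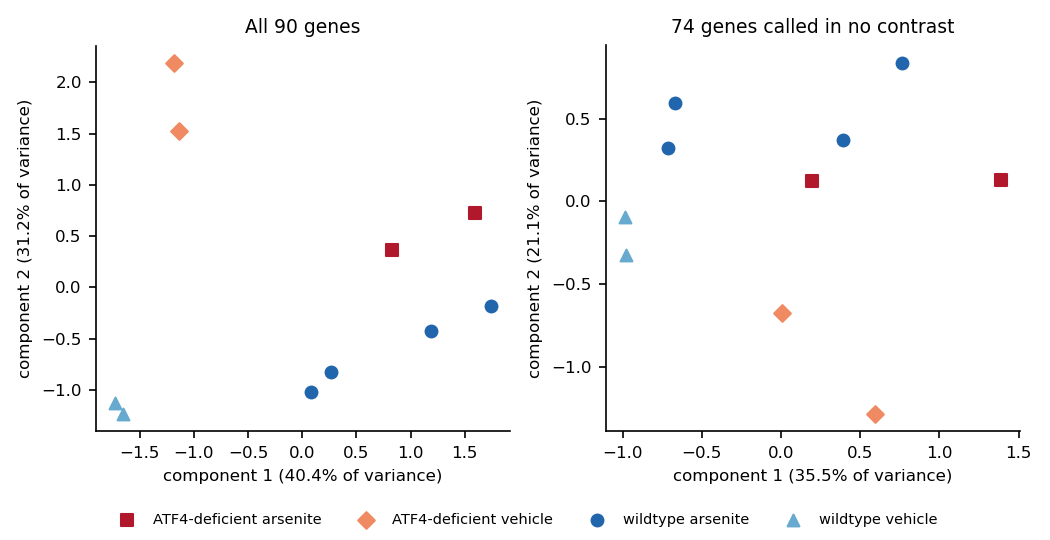
Arrays on the first and second principal component (arbitrary units of log2 value) of all 90 genes (left) and of the 74 genes called in no comparison (right). At left the arsenite arrays (0.08 to 1.74 on component 1) lie right of the vehicle arrays (-1.73 to -1.14) and the ATF4-deficient arrays lie above the wildtype arrays, while at right the treatments mix on component 1 and the arsenite arrays (0.12 to 0.83) lie above the vehicle arrays (-1.28 to -0.09) on component 2.

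Among the auxiliary Kcnip proteins, calcium-binding subunits that bind the Kcnd channels and raise their surface level and current, Kcnip2 changed most. Kcnip2 measured 6.22 and 5.78 on ATF4-deficient arsenite arrays, 6.55 and 6.42 on ATF4-deficient vehicle arrays, 6.59, 6.14, 6.15 and 6.61 on wildtype arsenite arrays, and 7.43 and 7.63 on wildtype vehicle arrays. Only the wildtype vehicle arrays lay above the dim reference, and they lay above every other array. Kcnip2 fell by 1.15 on the log2 scale with arsenite in wildtype neurons (SE 0.166, limma adjusted p = 0.0234) and was lower in ATF4-deficient than in wildtype neurons under vehicle (log2 difference -1.04, SE 0.192, adjusted p = 0.0482). Since the lower groups sit under the dim reference, the sizes may be understated. Over both genotypes the difference with arsenite was -0.82 (SE 0.127, adjusted p = 0.00721), which was called in all 10 fits with 1 array left out, at -0.93 to -0.71. The wildtype call was lost without either wildtype vehicle array and without wildtype arsenite replicate 2 or 3 (-1.25 to -1.05 over all 10). The call under vehicle was lost without any of the 6 wildtype arrays or of the 2 ATF4-deficient vehicle arrays (-1.14 to -0.94), and over both treatments the genotype difference was -0.71 (SE 0.127, adjusted p = 0.0213). That call was lost without either wildtype vehicle array or replicate 2 of either ATF4-deficient group (-0.82 to -0.60).

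The other Kcnip genes did not pass the test in any comparison. Kcnip4 lay at 7.79 and 7.40 on ATF4-deficient arsenite arrays, 8.12 and 7.83 on ATF4-deficient vehicle arrays, 8.13, 7.67, 7.72 and 8.28 on wildtype arsenite arrays, and 8.56 and 8.41 on wildtype vehicle arrays. Kcnip4 was thus highest on the wildtype vehicle arrays, with a log2 difference over both genotypes of -0.46 with arsenite (SE 0.138, adjusted p = 0.111) and over both treatments of -0.43 with ATF4 deficiency (adjusted p = 0.152). Kcnip1 stood at 8.63 and 8.82 on ATF4-deficient arsenite arrays, 8.27 and 8.22 on ATF4-deficient vehicle arrays, 8.58, 8.77, 8.72 and 8.50 on wildtype arsenite arrays, and 8.50 and 8.58 on wildtype vehicle arrays. The ATF4-deficient vehicle arrays were the lowest, and the arsenite difference in ATF4-deficient neurons was 0.48 (SE 0.116, adjusted p = 0.0871). Kcnip3 read 8.55 and 8.39 on ATF4-deficient arsenite arrays, 8.38 and 8.39 on ATF4-deficient vehicle arrays, 8.67, 8.55, 8.51 and 8.59 on wildtype arsenite arrays, and 8.65 and 8.69 on wildtype vehicle arrays. Kcnip3, also called calsenilin and DREAM, spanned a narrow range, with a genotype difference of -0.28 under vehicle (adjusted p = 0.287).

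The Kcnd channels that Kcnip proteins bind carry the A current of dendrites. None of Kcnd1, Kcnd2 and Kcnd3 was called. Kcnd2, the main Kcnd gene of cortical pyramidal neurons, averaged 9.97 ± 0.067 in ATF4-deficient arsenite, 10.4 ± 0.36 in ATF4-deficient vehicle, 9.93 ± 0.065 in wildtype arsenite and 10.1 ± 0.070 in wildtype vehicle arrays (SD, n = 2, 2, 4 and 2). The noncoding antisense gene Kcnd3os was near background. Dpp6 and Dpp10, the dipeptidyl peptidase-like proteins that complete these channels, are not Kcn genes and were measured with the partner list below.

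Of the 8 Kcna genes, the Shaker-type subunits, only Kcna4 was called. Kcna4 had log2 values of 7.71 and 7.71 on ATF4-deficient arsenite arrays, 8.32 and 8.66 on ATF4-deficient vehicle arrays, 7.53, 7.27, 7.34 and 7.76 on wildtype arsenite arrays, and 7.84 and 7.70 on wildtype vehicle arrays. Kcna4, a subunit of fast inactivating channels, was highest on the ATF4-deficient vehicle arrays, which lay above all other arrays. It fell by 0.78 on the log2 scale with arsenite in ATF4-deficient neurons (SE 0.162, adjusted p = 0.045) and was lower with arsenite over both genotypes (log2 difference -0.54, SE 0.107, adjusted p = 0.0232). The call over both genotypes was lost without either wildtype vehicle array, ATF4-deficient vehicle replicate 2 or either ATF4-deficient arsenite array (-0.62 to -0.45). The call in ATF4-deficient neurons was kept in 1 of 10 fits with an array left out, the one without wildtype arsenite replicate 4, with log2 differences of -0.95 to -0.61 over the 10. A second probe set of Kcna4 did not show the high ATF4-deficient vehicle level, at 7.17 and 6.99 in ATF4-deficient arsenite, 6.84 and 7.06 in ATF4-deficient vehicle, 7.35, 6.99, 7.03 and 7.27 in wildtype arsenite, and 7.24 and 7.49 in wildtype vehicle arrays. With both probe sets averaged neither Kcna4 call held.

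Kcnb2 was the only Kcnb gene measured and is a delayed rectifier of slow, sustained current. Kcnb2 measured 9.15 and 9.32 on ATF4-deficient arsenite arrays, 8.30 and 8.76 on ATF4-deficient vehicle arrays, 9.01, 9.07, 8.92 and 9.12 on wildtype arsenite arrays, and 9.08 and 9.07 on wildtype vehicle arrays. The ATF4-deficient vehicle arrays were low and the other arrays lay close together. Kcnb2 rose by 0.71 with arsenite in ATF4-deficient neurons (SE 0.141, adjusted p = 0.0398), against -0.04 in wildtype neurons, with an interaction of 0.75 that was not called (SE 0.186, adjusted p = 0.701). This call held in 1 of 10 fits with an array left out, the one without ATF4-deficient vehicle replicate 2, with differences of 0.48 to 0.94.

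None of the 3 Kcnc genes, which let interneurons fire fast, was called. Kcnc1 lay at 7.42 and 7.51 on ATF4-deficient arsenite arrays, 7.63 and 7.42 on ATF4-deficient vehicle arrays, 7.67, 7.56, 7.66 and 7.67 on wildtype arsenite arrays, and 7.55 and 7.55 on wildtype vehicle arrays. Kcnc2 averaged 7.60 ± 0.45 in ATF4-deficient arsenite, 7.70 ± 0.13 in ATF4-deficient vehicle, 8.005 ± 0.22 in wildtype arsenite and 8.202 ± 0.019 in wildtype vehicle arrays (SD, n = 2, 2, 4 and 2), a genotype difference over both treatments of -0.45 that was not called. Kcnc4 differed by -0.05 to 0.08 in the 4 comparisons of 2 groups.

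Silent alpha subunits form no channel alone and change the Kcnb channels they join. Kcnv1 and Kcng1 were called among the 10 genes of the Kcnf, Kcng, Kcns and Kcnv subfamilies. Kcnv1 stood at 8.08 and 7.96 on ATF4-deficient arsenite arrays, 8.48 and 8.36 on ATF4-deficient vehicle arrays, 8.17, 8.09, 8.13 and 8.23 on wildtype arsenite arrays, and 9.12 and 8.89 on wildtype vehicle arrays. The 4 groups of Kcnv1 did not overlap, with wildtype vehicle highest and ATF4-deficient arsenite just under wildtype arsenite. Kcnv1 fell by 0.85 with arsenite in wildtype neurons (SE 0.093, adjusted p = 0.00573), a 1.81-fold fall. Over both genotypes the difference was -0.63 (SE 0.071, adjusted p = 0.00142), called in all 10 fits with an array left out, at -0.68 to -0.57. The wildtype call was lost only without wildtype vehicle replicate 1 among those 10 fits (-0.97 to -0.74). Under vehicle Kcnv1 was lower in ATF4-deficient neurons (log2 difference -0.59, SE 0.108, adjusted p = 0.0473), a call lost whichever array was left out (-0.71 to -0.47). Over both treatments it was -0.36 (SE 0.071, adjusted p = 0.0298), called only without wildtype arsenite replicate 2 or 3 among those fits (-0.42 to -0.30).

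Kcng1 read 7.37 and 7.67 on ATF4-deficient arsenite arrays, 7.73 and 7.63 on ATF4-deficient vehicle arrays, 7.57, 7.73, 7.51 and 7.85 on wildtype arsenite arrays, and 8.44 and 8.37 on wildtype vehicle arrays. For Kcng1 the wildtype vehicle arrays stood above all 8 others, which overlapped. It fell by 0.74 with arsenite in wildtype neurons (SE 0.117, adjusted p = 0.0315), and the genotype difference under vehicle was -0.72 (SE 0.135, adjusted p = 0.0512), just outside the threshold. The wildtype call was lost without either wildtype vehicle array and without wildtype arsenite replicate 1, 2 or 3 (-0.80 to -0.68). Kcng1 was also called over both genotypes (-0.45, adjusted p = 0.0232) and over both treatments (-0.44, adjusted p = 0.0355), in 5 and 2 of the 10 fits with an array left out. The first was lost without any 1 of the 4 vehicle arrays or ATF4-deficient arsenite replicate 1 (-0.52 to -0.37), and the second held only without wildtype arsenite replicate 3 or ATF4-deficient arsenite replicate 2 (-0.51 to -0.36). Kcnf1, Kcng2, Kcng3, Kcns2 and Kcns3 were above the dim reference in some group and not called.

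In the Kcnh family, which holds the EAG, ERG and ELK channels, 2 of 8 genes were called. Kcnh3 had log2 values of 7.65 and 7.75 on ATF4-deficient arsenite arrays, 7.61 and 7.29 on ATF4-deficient vehicle arrays, 8.12, 7.86, 7.78 and 8.12 on wildtype arsenite arrays, and 8.51 and 8.33 on wildtype vehicle arrays. Kcnh3, an ELK channel of forebrain neurons that opens below the firing threshold, was lower on every ATF4-deficient array than on every wildtype array, and highest in wildtype vehicle. Under vehicle it was lower in ATF4-deficient neurons (log2 difference -0.97, SE 0.147, adjusted p = 0.0236), a 1.96-fold difference, and over both treatments (log2 difference -0.62, SE 0.097, adjusted p = 0.0125). Under arsenite the difference was -0.27 and not called. The vehicle call was lost without either wildtype vehicle array or without ATF4-deficient vehicle replicate 2 (-1.13 to -0.81), and the call over both treatments without replicate 2 of either vehicle group (-0.70 to -0.54).

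Kcnh5 measured 7.28 and 7.20 on ATF4-deficient arsenite arrays, 7.54 and 7.80 on ATF4-deficient vehicle arrays, 7.37, 7.46, 7.36 and 7.62 on wildtype arsenite arrays, and 7.76 and 7.82 on wildtype vehicle arrays. Arsenite arrays lay below vehicle arrays within each genotype for Kcnh5, an EAG channel. It was called only over both genotypes, at -0.38 with arsenite (SE 0.079, adjusted p = 0.0269), in 4 of 10 fits with an array left out (-0.45 to -0.32). The 6 it was lost in left out either wildtype vehicle array, wildtype arsenite replicate 2 or 3, ATF4-deficient vehicle replicate 2 or ATF4-deficient arsenite replicate 2. Kcnh8 lay at 7.57 and 7.95 on ATF4-deficient arsenite arrays, 7.50 and 7.59 on ATF4-deficient vehicle arrays, 7.38, 7.50, 7.30 and 7.21 on wildtype arsenite arrays, and 7.50 and 7.28 on wildtype vehicle arrays. The arsenite arrays of the genotypes did not overlap for Kcnh8, an ELK channel, with a difference of 0.41 that was not called (SE 0.123, adjusted p = 0.23). The ERG genes Kcnh2 and Kcnh7 were not called, and Kcnh6 was near background.

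Kcnq subunits carry the M current, which muscarinic receptors shut. Kcnq3 stood at 9.51 and 9.69 on ATF4-deficient arsenite arrays, 9.09 and 9.15 on ATF4-deficient vehicle arrays, 9.71, 9.69, 9.41 and 10.03 on wildtype arsenite arrays, and 10.35 and 10.39 on wildtype vehicle arrays. Kcnq3 was highest in wildtype vehicle and lowest in ATF4-deficient vehicle, with both arsenite groups between them and overlapping. It was lower in ATF4-deficient neurons under vehicle (log2 difference -1.25, SE 0.162, adjusted p = 0.0159), a 2.39-fold difference, which was the largest of the 90 genes there. Under arsenite the difference was -0.11. The arsenite difference was 0.48 in ATF4-deficient neurons (adjusted p = 0.239) and -0.66 in wildtype neurons (adjusted p = 0.0756), opposite in sign. The interaction of 1.14 was the largest of the 90 genes (SE 0.214, unadjusted p = 0.000235) but was not called (adjusted p = 0.347). The vehicle call was lost without any 1 of the 4 vehicle arrays, while the difference stayed between -1.28 and -1.23, and over both treatments it was -0.68 (adjusted p = 0.0123), a call lost without replicate 2 of either vehicle group (-0.73 to -0.63).

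Kcnq5 read 9.08 and 9.37 on ATF4-deficient arsenite arrays, 9.87 and 10.19 on ATF4-deficient vehicle arrays, 9.33, 9.35, 9.23 and 9.45 on wildtype arsenite arrays, and 9.82 and 9.69 on wildtype vehicle arrays. Kcnq5, which forms M channels with Kcnq3, showed another order, with ATF4-deficient vehicle highest and arsenite arrays of both genotypes below all vehicle arrays. It fell by 0.81 with arsenite in ATF4-deficient neurons (SE 0.135, adjusted p = 0.0217), while the wildtype difference was -0.41 (SE 0.117, adjusted p = 0.185). Over both genotypes it was -0.61 (SE 0.089, adjusted p = 0.00573), called in all 10 fits with an array left out, at -0.69 to -0.53. The call in ATF4-deficient neurons was lost without ATF4-deficient vehicle replicate 2 or ATF4-deficient arsenite replicate 1 (-0.97 to -0.65). A second probe set of Kcnq5 lay below the dim reference on every array, and with the probe sets averaged the call in ATF4-deficient neurons was lost.

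Kcnq1ot1 is a long noncoding RNA read from the antisense strand within the Kcnq1 gene and is known for imprinting in that region, so it is a member by name only. Kcnq1ot1 had log2 values of 8.90 and 9.18 on ATF4-deficient arsenite arrays, 8.37 and 8.47 on ATF4-deficient vehicle arrays, 8.77, 8.93, 8.80 and 8.81 on wildtype arsenite arrays, and 8.46 and 8.22 on wildtype vehicle arrays. The arsenite arrays lay above all vehicle arrays in both genotypes. It rose by 0.62 with arsenite in ATF4-deficient neurons (SE 0.123, adjusted p = 0.0395), where the call held in 1 of 10 fits with an array left out, the one without ATF4-deficient arsenite replicate 1 (0.48 to 0.77). The wildtype difference was 0.49 (SE 0.106, adjusted p = 0.0861). Over both genotypes it was 0.56 (SE 0.081, adjusted p = 0.00573), called in all 10 such fits at 0.48 to 0.63. It was the only 1 of the 10 genes called there that rose. Kcnq1 itself was near background, with differences of -0.02 to 0.14 in the 4 comparisons of 2 groups.

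Among channels opened by calcium or sodium, Kcnn2 and Kcnt2 were called. Kcnn2 measured 7.55 and 7.69 on ATF4-deficient arsenite arrays, 7.51 and 7.47 on ATF4-deficient vehicle arrays, 7.59, 7.51, 7.38 and 7.58 on wildtype arsenite arrays, and 8.36 and 8.11 on wildtype vehicle arrays. Kcnn2, the SK2 channel of the afterhyperpolarisation, was high only on the wildtype vehicle arrays, above all 8 others. It fell by 0.72 with arsenite in wildtype neurons (SE 0.1003, adjusted p = 0.0187) and was lower in ATF4-deficient neurons under vehicle (log2 difference -0.75, SE 0.116, adjusted p = 0.025). In ATF4-deficient neurons arsenite moved it by 0.13, and the interaction was 0.85 (SE 0.153, unadjusted p = 0.000164, adjusted p = 0.34). The wildtype call was lost without wildtype vehicle replicate 1 or wildtype arsenite replicate 2 or 3 (-0.85 to -0.60), and the vehicle call without any 1 of the 4 vehicle arrays (-0.87 to -0.62). Kcnn1 and Kcnn3, the other SK genes, were not called, with genotype differences under vehicle of -0.35 and -0.62.

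Kcnt2 lay at 8.36 and 8.17 on ATF4-deficient arsenite arrays, 7.98 and 8.13 on ATF4-deficient vehicle arrays, 9.03, 9.23, 8.97 and 9.44 on wildtype arsenite arrays, and 8.59 and 8.73 on wildtype vehicle arrays. Kcnt2 encodes a sodium-activated channel, also called Slick. The ATF4-deficient arrays did not overlap the wildtype arrays and lay below them, and wildtype arsenite was highest. Under arsenite Kcnt2 was lower in ATF4-deficient neurons (log2 difference -0.91, SE 0.130, adjusted p = 0.017), a 1.87-fold difference. Under vehicle the log2 difference was -0.60 and not called (SE 0.1497, adjusted p = 0.126). Over both treatments the difference was -0.75 (SE 0.099, adjusted p = 0.00627), called in all 10 fits with an array left out, at -0.80 to -0.71. The arsenite call was lost without wildtype arsenite replicate 2 or either ATF4-deficient arsenite array (-0.998 to -0.81). The arsenite difference in wildtype neurons was 0.51 (adjusted p = 0.131), and Kcnt1, the related Slack channel, differed between genotypes by -0.17 over both treatments without a call.

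Kcnma1 encodes the large-conductance BK channel. Kcnma1 stood at 10.34 and 10.33 on ATF4-deficient arsenite arrays, 10.05 and 10.40 on ATF4-deficient vehicle arrays, 10.06, 10.18, 9.97 and 10.11 on wildtype arsenite arrays, and 10.18 and 10.17 on wildtype vehicle arrays. Among the compared groups only ATF4-deficient and wildtype arsenite did not overlap, with a difference of 0.25 (SE 0.106, adjusted p = 0.38), which was -0.16 with a second, dimmer probe set averaged in. The BK auxiliary genes Kcnmb1, Kcnmb2 and Kcnmb4 were not called. Kcnmb4, the neuronal beta subunit, had its largest difference of -0.41 between genotypes under vehicle, and Kcnmb3 was near background.

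**Figure D5:**
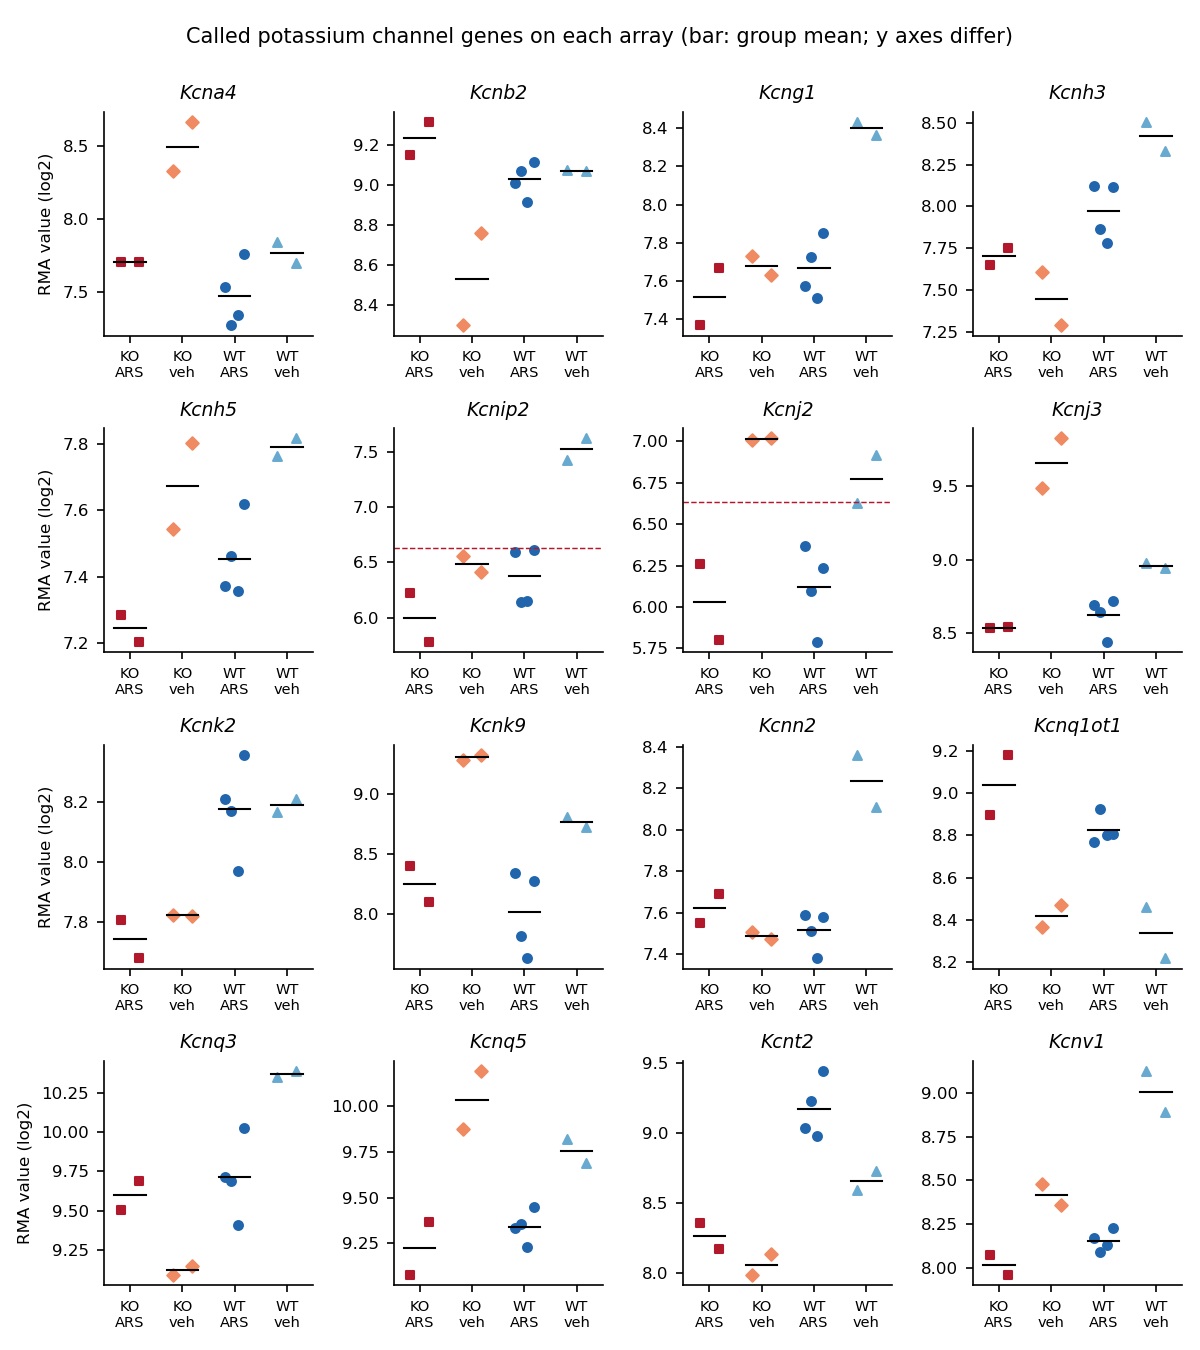
RMA value (log2, vertical axes differ) of the 16 called genes on each of the 10 arrays, by group: KO ARS is ATF4-deficient arsenite, KO veh ATF4-deficient vehicle, WT ARS wildtype arsenite and WT veh wildtype vehicle. Points are arrays, bars are group means and the dashed line is the dim reference of 6.63. Kcnip2, Kcng1 and Kcnn2 stand high only in wildtype vehicle, and Kcnj3, Kcna4, Kcnk9, Kcnj2 and Kcnq5 stand highest in ATF4-deficient vehicle.

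Of the 14 inward rectifier genes, Kcnj3 and Kcnj2 were called. Kcnj3 read 8.53 and 8.54 on ATF4-deficient arsenite arrays, 9.49 and 9.83 on ATF4-deficient vehicle arrays, 8.69, 8.65, 8.44 and 8.72 on wildtype arsenite arrays, and 8.98 and 8.94 on wildtype vehicle arrays. Kcnj3, the GIRK1 subunit opened by G proteins downstream of inhibitory receptors, was highest in ATF4-deficient vehicle, and arsenite arrays of both genotypes lay below all vehicle arrays. It fell by 1.12 with arsenite in ATF4-deficient neurons (SE 0.129, adjusted p = 0.00348), a 2.18-fold fall, and this call held in all 10 fits with an array left out (-1.29 to -0.95). In wildtype neurons the difference was -0.33 (SE 0.111, adjusted p = 0.27), with an interaction of -0.79 that was not called (SE 0.170, adjusted p = 0.602). Over both genotypes it was -0.73 (SE 0.085, adjusted p = 0.00159), called in all 10 such fits at -0.81 to -0.64. Under vehicle Kcnj3 was higher in ATF4-deficient neurons by 0.70 (SE 0.129, adjusted p = 0.0473).

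This last call held in 2 of the 10 fits, those without wildtype arsenite replicate 3 or ATF4-deficient vehicle replicate 1, at 0.53 to 0.87 over the 10. A second, dimmer probe set of Kcnj3 ran the other way under vehicle, at 6.70 and 6.49 on ATF4-deficient vehicle arrays, against 6.91 and 6.91 on wildtype vehicle arrays. With the probe sets averaged the call under vehicle was lost. The second probe set also lacked the fall with arsenite in ATF4-deficient neurons. Its ATF4-deficient arsenite arrays, at 6.55 and 6.59, lay between the ATF4-deficient vehicle arrays, close to the dim reference of 6.63. In wildtype neurons its arsenite arrays (6.66 to 6.90) lay below its vehicle arrays. The arsenite call in ATF4-deficient neurons was kept with the probe sets averaged. The other GIRK genes, Kcnj5, Kcnj6 and Kcnj9, were not called, with arsenite differences over both genotypes of -0.08, -0.16 and -0.28.

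Kcnj2 had log2 values of 6.26 and 5.80 on ATF4-deficient arsenite arrays, 7.01 and 7.02 on ATF4-deficient vehicle arrays, 6.37, 6.10, 5.79 and 6.24 on wildtype arsenite arrays, and 6.63 and 6.92 on wildtype vehicle arrays. Kcnj2, the Kir2.1 channel that holds the resting potential, was above the dim reference on 3 arrays, all given vehicle, and arsenite arrays lay below all vehicle arrays. It fell by 0.98 with arsenite in ATF4-deficient neurons (SE 0.193, adjusted p = 0.0386), while the wildtype difference was -0.65 (SE 0.167, adjusted p = 0.138). Both arsenite groups sit under the dim reference, so the sizes may be understated. Over both genotypes it was -0.82 (SE 0.127, adjusted p = 0.00756), called in all 10 fits with an array left out, at -0.93 to -0.70. The call in ATF4-deficient neurons held in 3 of the 10, those without wildtype arsenite replicate 1 or 3 or ATF4-deficient arsenite replicate 1 (-1.21 to -0.75). The related Kcnj4 had an arsenite difference over both genotypes of -0.39 and was not called.

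Kcnj10 and Kcnj16 are known from astrocytes, where they take up potassium. Kcnj10 measured 7.55 and 7.96 on ATF4-deficient arsenite arrays, 7.95 and 7.78 on ATF4-deficient vehicle arrays, 7.86, 7.83, 7.84 and 8.11 on wildtype arsenite arrays, and 8.23 and 8.02 on wildtype vehicle arrays. Kcnj16 lay at 6.73 and 6.33 on ATF4-deficient arsenite arrays, 6.94 and 6.56 on ATF4-deficient vehicle arrays, 6.78, 6.61, 6.69 and 7.32 on wildtype arsenite arrays, and 6.82 and 6.85 on wildtype vehicle arrays. Neither was called, and the genotype differences over both treatments were -0.21 for Kcnj10 (SE 0.0999, adjusted p = 0.335) and -0.20 for Kcnj16, beside the lower astrocyte marker means of the ATF4-deficient arrays given above. Kcnj8 stood at 6.55 and 6.43 on ATF4-deficient arsenite arrays, 6.51 and 6.42 on ATF4-deficient vehicle arrays, 6.43, 6.43, 6.46 and 6.34 on wildtype arsenite arrays, and 6.34 and 6.37 on wildtype vehicle arrays. Kcnj8, known from pericytes, was under the dim reference on every array.

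Two-pore Kcnk channels set the leak, and 2 of the 13 Kcnk genes were called. Kcnk9 read 8.40 and 8.10 on ATF4-deficient arsenite arrays, 9.28 and 9.32 on ATF4-deficient vehicle arrays, 8.34, 7.81, 7.63 and 8.27 on wildtype arsenite arrays, and 8.80 and 8.72 on wildtype vehicle arrays. Kcnk9, the acid-sensitive TASK-3 channel, was highest in ATF4-deficient vehicle, and arsenite arrays of both genotypes lay below all vehicle arrays. It fell by 1.05 with arsenite in ATF4-deficient neurons (SE 0.211, adjusted p = 0.0409), and the wildtype difference was -0.75 (SE 0.182, adjusted p = 0.116). Over both genotypes it was -0.90 (SE 0.139, adjusted p = 0.00699), a 1.87-fold fall called in all 10 fits with an array left out, at -0.98 to -0.83. The call in ATF4-deficient neurons held in 3 of the 10, those without wildtype arsenite replicate 1, 3 or 4 (-1.20 to -0.90).

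Kcnk2 had log2 values of 7.81 and 7.68 on ATF4-deficient arsenite arrays, 7.82 and 7.82 on ATF4-deficient vehicle arrays, 8.21, 8.17, 7.97 and 8.36 on wildtype arsenite arrays, and 8.17 and 8.21 on wildtype vehicle arrays. Kcnk2, the TREK-1 channel opened by stretch and lipids, was lower on every ATF4-deficient array than on every wildtype array. It was called only over both treatments, at -0.40 (SE 0.081, adjusted p = 0.0322), in 2 of 10 fits with an array left out, those without wildtype arsenite replicate 3 or 4 (-0.44 to -0.37). Kcnk10, the related TREK-2 channel, averaged 9.91 ± 0.035 in ATF4-deficient arsenite, 10.3 ± 0.047 in ATF4-deficient vehicle, 9.78 ± 0.15 in wildtype arsenite and 9.98 ± 0.066 in wildtype vehicle arrays (SD, n = 2, 2, 4 and 2) and was not called. Kcnk5, Kcnk7, Kcnk16 and Kcnk18 were near background, and the other 6 Kcnk genes were above it in some group without a call.

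None of the remaining auxiliary genes was called. Kcnab2 measured 8.29 and 8.09 on ATF4-deficient arsenite arrays, 8.32 and 8.35 on ATF4-deficient vehicle arrays, 8.52, 8.45, 8.42 and 8.49 on wildtype arsenite arrays, and 8.42 and 8.51 on wildtype vehicle arrays. Kcnab2, a cytoplasmic beta subunit of Kcna channels, had a genotype difference of -0.28 under arsenite, without a call (SE 0.086, adjusted p = 0.235). Kcnab1 was not called and Kcnab3 was near background. Of the 5 Kcne genes, small single-pass subunits, none was called, and their differences in the 4 comparisons of 2 groups ran from -0.28 for Kcne4 to 0.20 for Kcne1. The Kcne4 value, for arsenite in ATF4-deficient neurons, was 0.07 without ATF4-deficient arsenite replicate 2. Kcnrg, which is thought to regulate Kcna assembly, was near background.

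Partners outside the Kcn names were taken from a list of 46 genes (auxiliary, anchoring and pump proteins), of which 38 were measured. With arsenite in ATF4-deficient neurons 1 of the 38 was called, Dpp10, which was higher, where 1.15% of all genes were called. Over both genotypes, where 3.07% of all genes were called, Dpp10 was called higher and Lrrc55, an auxiliary protein of BK channels, lower. By limma 0 were called in the other 5 comparisons. An unadjusted p under 0.05 was held there by 4 of the 38 for genotype under arsenite, against 12.1% of all genes, 8 for genotype under vehicle (10.9%), 7 for genotype over both treatments (16.3%), 2 for arsenite in wildtype neurons (10.9%) and 3 for the interaction (6%). Dpp10 had 9.42 and 9.66 in ATF4-deficient arsenite, 8.77 and 9.02 in ATF4-deficient vehicle, 9.44, 9.52, 9.42 and 9.58 in wildtype arsenite, and 9.27 and 9.38 in wildtype vehicle arrays, so the ATF4-deficient vehicle arrays were the lowest. The Dpp10 difference was 0.64 in ATF4-deficient neurons (SE 0.120, adjusted p = 0.0327) and 0.41 over both genotypes (adjusted p = 0.0215), and that of Lrrc55 over both genotypes was -0.39 (adjusted p = 0.0196). With only the compared groups in the fit, 0 genes of the table were called for arsenite in ATF4-deficient neurons, so the Dpp10 call there was lost. How far these calls depend on single arrays was not examined. Dpp6 averaged 9.76 ± 0.20 in ATF4-deficient arsenite, 9.57 ± 0.086 in ATF4-deficient vehicle, 9.83 ± 0.19 in wildtype arsenite and 9.92 ± 0.17 in wildtype vehicle arrays (SD, n = 2, 2, 4 and 2) and was not called. The median log2 difference of the 38 over both genotypes was -0.01, against -0.01 for all genes.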

How the data were processed

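RNA was measured on Affymetrix whole-transcript mouse arrays after Trizol extraction and labelling with the WT PLUS reagents, per the labels' protocols. The deposited values are log2 expression values, which the authors normalized by RMA in Partek 6.6, per the submitters' processing notes. RMA equalises the arrays' distributions and would remove a shift common to most transcripts. Scanner files were not used here. Precision is limited by the small number of arrays.

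Of 41345 probe sets, 23521 had 1 gene symbol in the platform annotation, 1814 several and 16010 no entry. Of those with 1 symbol, 23328 matched the GRCm38.p6 gene table by Entrez identifier and 0 symbols changed. The 90 potassium channel genes had 97 probe sets, 7 genes having more than 1, and 4 further probe sets that name several genes were left out. The sources used here do not give the array's genome build.

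Groups came from the titles. A limma 3.58.1 fit (R 4.3.3) with 1 mean for each group (6 residual degrees of freedom, prior 5.08, prior SD 0.124) gave 7 contrasts. The labels name no batch. In simulated data on the 22180 genes for arsenite in ATF4-deficient neurons, the fit was tested with known changes before use. The outcome is not given here, so it is no measure of how reliable the calls are. Named were all called genes, the largest non-overlapping differences, Kcnip1 to Kcnip4, Kcnj8, Kcnj10 and Kcnj16. The members and lists were chosen with earlier results of these data known. Alternatives were a filter on dim genes, averaged probe sets, equal medians, array weights, a trended prior, a replicate block, compared groups only and each array left out.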

Additional observations from a re-analysis of the deposited data

Results flagged for a closer look

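Within the 4 wildtype arsenite arrays, 1 array lay far from the other 3 for 10 of the 90 genes by Dixon's test, where chance flags about 1 in 20 groups, or 4.5 of 90. That rate assumes normal values. The genes share the same 4 arrays, so the flags are not independent and the 2 counts are a description. Of the 10, 5 concerned replicate 3, which was low: Kcna6 (8.13, others 8.31 to 8.34), Kcnk10 (9.56, others 9.84 to 9.87), Kcnk12 (6.501, others 6.87 to 6.91), Kcnmb1 (6.71, others 6.86 to 6.88) and Kcnn4 (6.57, others 6.82 to 6.87). Replicate 1 was low for Kcna7 (6.77, others 6.82 to 6.82) and high for Kcnh4 (6.88, others 6.54 to 6.56). Replicate 2 was low for Kcnc1 (7.56, others 7.66 to 7.67). Replicate 4 was high for Kcnj10 (8.11, others 7.83 to 7.86) and for Kcns3 (7.65, others 7.58 to 7.58). The other Kcns3 values were identical, and the test's rate does not hold for such ties. Replicate 4 also had the highest astrocyte marker mean of the 4 arrays, 8.05, against 7.52 to 7.86, and the part of cell makeup in the Kcnj10 value was not tested. None of the 10 genes was called in any comparison.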

How the results depend on the processing

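The counts of called genes depended on single arrays and on which arrays shared the estimate of spread. With each array left out in turn, the count ran from 2 to 4 for arsenite in ATF4-deficient neurons (7 with all arrays), 0 to 5 for arsenite in wildtype neurons (4), 0 to 5 for genotype under vehicle (6), 0 to 1 for genotype under arsenite (1), 7 to 10 for arsenite over both genotypes (10) and 1 to 8 for genotype over both treatments (7). In the same fits the count over all 22180 genes ran from 50 to 200, 0 to 75, 0 to 99, 1 to 64, 242 to 654 and 58 to 377 in that order. With compared groups only, the counts of the 4 comparisons of 2 groups were 0, 1, 0 and 0 in that order (all genes 0, 11, 0 and 41), and array weights gave 2 for arsenite in ATF4-deficient neurons (all genes 135), where Kcna4, Kcnb2, Kcnj2, Kcnk9 and Kcnq1ot1 were not called. The replicate block gave 6, 1, 7 and 0 in that order, 12 over both genotypes and 10 over both treatments (all genes 286, 17, 165, 4, 759 and 516). With it Kcng1, Kcnip2 and Kcnn2 for arsenite in wildtype neurons, Kcnq1ot1 for arsenite in ATF4-deficient neurons and Kcnt2 for genotype under arsenite were not called. Only wildtype arsenite has replicates 3 and 4, so the block terms absorb those arrays. Comparisons with wildtype arsenite then rest on its replicates 1 and 2. There the effect of the block cannot be told apart from the loss of those arrays. With averaged probe sets Kcnip2 under vehicle, and with equal medians Kcnj3 under vehicle, were not called. Kcnip2 has 1 probe set, so its own values were the same in the fit with averaged probe sets. The replicate numbers were not shown to pair the samples, as correlations of same-numbered arrays ran from -0.06 to 0.40 and the labels name no shared source. The interaction called 0 genes in every fit run. None of the 35 called differences changed sign in these fits. Of 65 uncalled differences between 2 groups of at least 0.25, 3 did, Kcnma1 for genotype under arsenite (-0.16 with averaged probe sets), and, for arsenite in ATF4-deficient neurons, Kcne4 (-0.636 to 0.0715 with an array left out, positive only without ATF4-deficient arsenite replicate 2) and Kcnn3 (-0.0452 to 0.747, negative only without ATF4-deficient arsenite replicate 1). Called in all alternatives run were 7 genes over both genotypes (Kcnip2, Kcnj2, Kcnj3, Kcnk9, Kcnq1ot1, Kcnq5, Kcnv1) and Kcnt2 over both treatments. The alternative with compared groups only was run just for the 4 comparisons of 2 groups, so these calls were not put to it. The cause of the moved counts was not tested.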

Other observations

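The second Kcnma1 probe set had 5.58 and 5.76 in ATF4-deficient arsenite, 5.69 and 5.56 in ATF4-deficient vehicle, 5.85, 5.88, 5.77 and 7.50 in wildtype arsenite, and 5.88 and 8.2015 in wildtype vehicle arrays. Wildtype arsenite replicate 4 and wildtype vehicle replicate 2 thus stood above the dim reference of 6.63 and the other 8 arrays below it, while the brighter Kcnma1 probe set was 10.1 and 10.2 on those arrays.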
